A study of Mus musculus with 24 samples.

Results

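The comparison described here is the genotype by angiotensin II interaction in the mouse aorta: the change with angiotensin II in knockout (KO) mice lacking Ppp3cb, minus the same change in wildtype (WT) mice, averaged over females and males. All 24 of the 24 libraries of the series enter it, 12 from females and 12 from males, in 8 groups of 3. A positive value means that the KO response lay above the WT response, and a negative value that it lay below. The WT and KO mice came from the line B6,129S6-Ppp3cbtm1Jmk/J and were 5 months old. The treated groups received angiotensin II from osmotic minipumps at 500 ng per kg body weight per minute for 4 weeks, and RNA came from the aorta. What the control groups received is not given in the sources used here, and no promoter or Cre line is named for the knockout. The labels number the libraries of a group but do not say that each is 1 animal, so the p-values measure the spread between these libraries.

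Calcineurin is a calcium-dependent phosphatase built from a catalytic A subunit, encoded by Ppp3ca, Ppp3cb or Ppp3cc, and a regulatory B subunit. It dephosphorylates NFAT transcription factors, which then enter the nucleus, and the inhibitor gene Rcan1 is among their best-known targets. Angiotensin II acts on vascular smooth muscle through Gq-coupled receptors that raise intracellular calcium, and its long infusion is widely used to raise blood pressure and to induce matrix deposition and leukocyte entry in the aortic wall. The question of the comparison is whether that response depends on the beta catalytic subunit.

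Ppp3cb itself (chr14:20499364-20546573, mm10) checked the labels. In CPM, counts scaled to a common library size, the 6 WT control libraries ran from 28.1 through a median of 43.7 to 49.6, and the 6 WT angiotensin II libraries from 30.4 through 38.0 to 69.4. The KO control libraries ran from 11.2 through 21.2 to 28.8, and the KO angiotensin II libraries from 15.1 through 20.2 to 30.3. Within each sex and treatment, every KO library lay below every WT library, with reads remaining in all of them. The interaction of Ppp3cb was 0.10 ± 0.31 (log2, standard error, SE), so a dependence of its reduction on treatment was not detectable at that error. Smooth muscle RNA was present in every library: the summed level of 16 measured contractile smooth muscle genes was 11829 to 31961 CPM. That level does not tell the aorta from other tissue with smooth muscle.

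No gene passed the test of the interaction. Of 16316 genes tested with edgeR's quasi-likelihood test, 0 (0.0%) had a Benjamini-Hochberg adjusted p under 0.05, and the smallest adjusted p was 1.0. At an unadjusted p under 0.05 there were 657 genes (4.03%), of which 346 (2.12%) had a higher and 311 (1.91%) a lower KO response. DESeq2 and limma-voom each called 0 genes as well, with 761 and 847 at an unadjusted p under 0.05. Within females 0 genes (0.0%) passed, with 950 (5.82%) at an unadjusted p under 0.05 and a smallest adjusted p of 0.595; 3.41% were higher and 2.41% lower. Within males 0 (0.0%) passed, with 673 (4.12%) at an unadjusted p under 0.05 and a smallest adjusted p of 0.237. In the same fit, angiotensin II changed 34 genes (0.208%) in WT and 0 (0.0%) in KO, with 1095 (6.71%) and 1258 (7.71%) at an unadjusted p under 0.05. Of all genes, 3.47% were higher and 3.24% lower at that p in WT, and 4.21% and 3.5% in KO. That contrast between 34 and 0 is not a test of the difference, which is the interaction itself. All single-gene and gene-list values below are therefore descriptions of direction and size. Of all 16316 genes, 52.7% had a positive interaction, the share beside which counts of higher and lower list members stand.

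The size of interaction that these libraries could resolve differed between genes. The median SE was 0.64 on the log2 scale over all genes and 0.39 over 8292 well-expressed genes, defined by an average log2 CPM of 3 or more. For 3644 of those 8292 genes (43.9%), the 95% interval of the interaction lay within 1 log2 unit of 0 on both sides. For the other 4648 genes, a difference of 2-fold or more between the genotypes in their response lay inside the interval.

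Libraries held 1523328 to 6352365 counts, with the 3 KO control females the shallowest group at 1523328 to 2401264. The KO control females also carried 1640 ± 553 CPM (SD, n = 3) from olfactory and vomeronasal receptor genes. The aorta is not known for these genes. Their range of 1005 to 2014 CPM overlapped that of the other 21 libraries, 111 to 1083 CPM. Treated KO females had the next highest mean, 723 CPM (436 to 1083), against 391 CPM in control and 264 CPM in treated WT females. Group means in males ran from 147 to 418 CPM. The KO control females enter the interaction as 1 of its 4 female terms. For the gene lists that lean on them, values without them are given. For single genes they do not enter the male value itself, but they enter the shared estimate of spread behind its error. Ribosomal, small nuclear, small nucleolar and miscellaneous RNA took 2.70% to 40.4% of a library's counts. This share was uneven within groups, at 40.4%, 17.9% and 9.56% in the treated KO females. It also differed between the sexes: treated WT libraries held 15.6% to 23.9% in females and 32.7% to 39.5% in males. Its part in the results was not tested. In bulk tissue, fewer cells of a type and less RNA per cell cannot be told apart.

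Calcineurin subunits and their regulators showed no member at an unadjusted interaction p under 0.05. Of the 4 tested subunit genes, all 4 had a positive value, from 0.10 for Ppp3cb to 0.29 ± 0.32 for Ppp3ca, the alpha catalytic subunit. Among 9 tested regulators, 5 were higher and 4 lower in the KO response. The 7 tested NFAT factors and export kinases ranged from -0.51 ± 0.59 for Nfatc2 to 0.32 ± 0.29 for Nfatc1. Rcan2, a relative of Rcan1, was at 0.29 ± 0.24. Ppp3r1, the regulatory B subunit, was at 0.15 ± 0.64 and changed sign in several alternative fits.

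Rcan1 (chr16:92391953-92470867, mm10, minus strand) was the regulator with the smallest p. In WT the control libraries were at 12.5, 12.4 and 26.7 CPM in females and 10.1, 15.8 and 13.5 in males. With angiotensin II the WT libraries were at 25.0, 53.6 and 44.8 CPM in females and 31.9, 41.4 and 48.3 in males, so 5 of 6 lay above the highest WT control. In KO the controls were at 0.0, 7.92 and 6.1 CPM in females and 10.7, 8.21 and 12.6 in males, and the treated libraries at 15.3, 10.3 and 7.87 and at 17.2, 10.6 and 7.64. All 6 treated KO libraries lay below all 6 treated WT libraries, and the KO arms overlapped each other. The response was 1.44 ± 0.34 log2 in WT (adjusted p = 0.07) and 0.66 ± 0.37 in KO (adjusted p = 0.692). The interaction was -0.78 ± 0.51 (unadjusted p = 0.132), with a 95% interval from -1.81 to 0.25. It was -0.44 without KO control female replicate 2, and ran from -1.44 to -0.06 over all alternative fits. It was -0.09 ± 0.74 in females and -1.47 ± 0.69 in males, and that sex difference had an unadjusted p of 0.178.

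Rcan1 has 2 RefSeq windows in the promoter table, and the window of the internal start is shown because calcineurin-dependent transcription of this gene is known to use that start. The capitals mark GGAAA, the core of the NFAT motif, on either strand (chr16:92400029-92400328, GRCm38.p6, minus strand, 250 bases before to 50 after the start).
Rcan1 internal start: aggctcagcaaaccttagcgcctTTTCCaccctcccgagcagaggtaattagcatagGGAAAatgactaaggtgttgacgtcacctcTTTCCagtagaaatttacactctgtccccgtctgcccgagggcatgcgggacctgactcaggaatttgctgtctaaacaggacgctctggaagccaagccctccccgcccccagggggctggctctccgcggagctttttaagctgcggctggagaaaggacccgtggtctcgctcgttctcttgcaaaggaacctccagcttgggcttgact
The window holds 3 matches, and 61.3% of 32851 mouse promoter windows hold at least 1, so a match alone is common. The counts are per gene and do not separate the 2 starts.

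**Figure D1:**
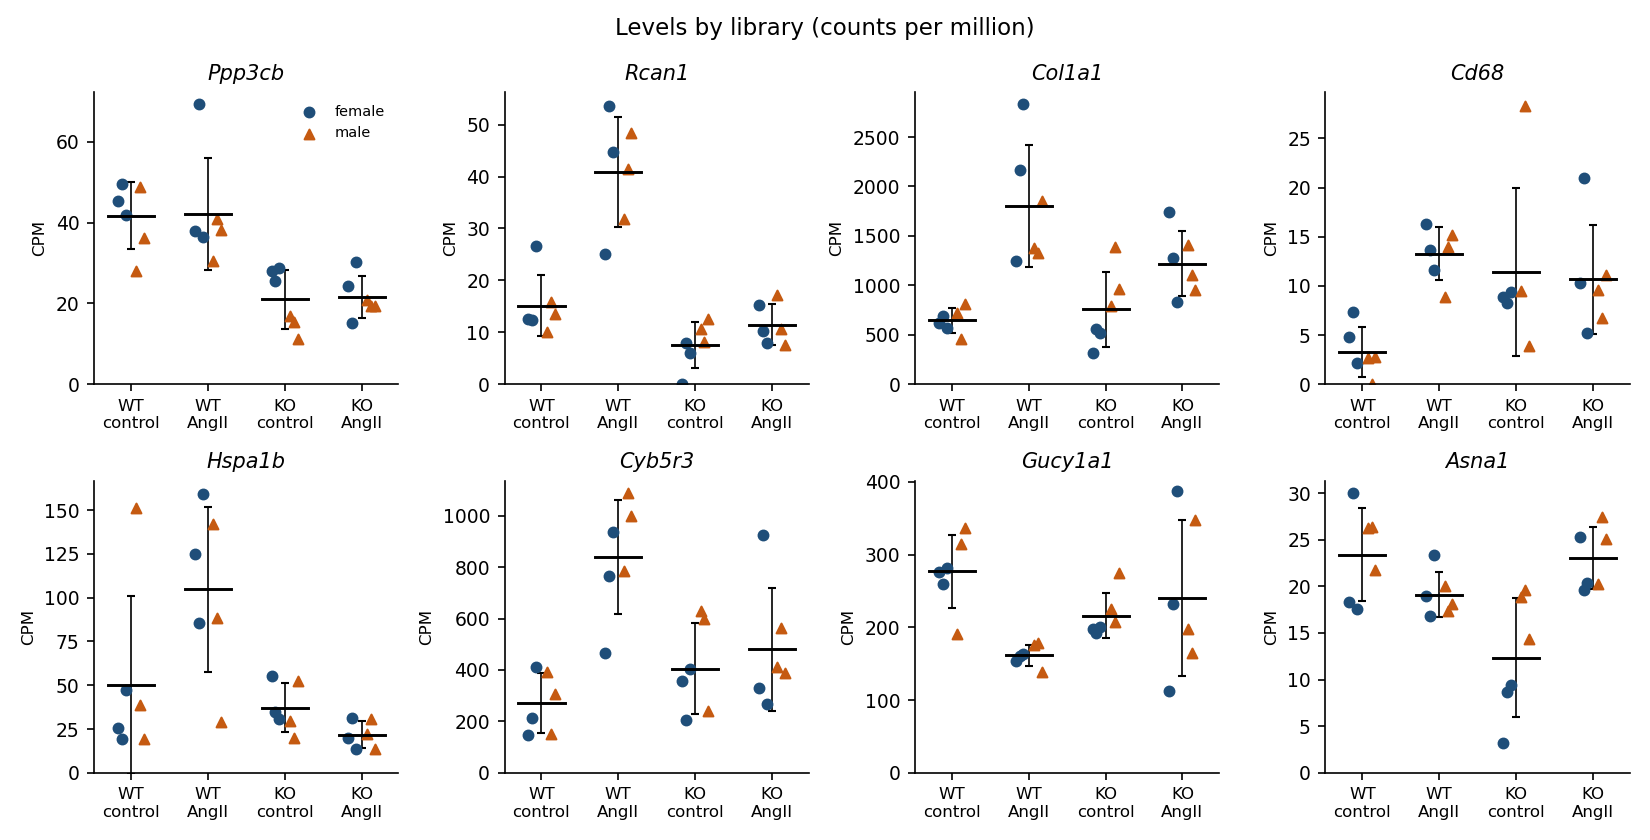
Level of 8 genes in each of the 24 libraries, in CPM on a linear axis from 0, with females as circles and males as triangles in the 4 genotype and treatment arms; bars are the mean of 6 libraries and whiskers 1 SD. Ppp3cb is lower in both KO arms, and for Rcan1, Col1a1, Cd68 and Cyb5r3 the treated WT libraries lie above most or all WT controls while the KO arms overlap.

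Extracellular matrix genes had a smaller angiotensin II response in KO in most members, without passing the test. The list holds 36 collagens, elastic fibre genes, proteoglycans and matricellular proteins, of which 33 were tested. Of these, 29 had a lower KO response and 3 (against 1.91% of all genes) had an unadjusted p under 0.05, while 0 of 33 were higher at that p. The median response was 0.98 log2 in WT and 0.56 in KO, and the median interaction -0.44, against 0.04 over all genes. The responses themselves had the same direction: 32 of 33 members had a positive value in WT and 27 of 33 in KO.

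Col1a1, the alpha 1 chain of type I collagen (chr11:94936224-94953042, mm10), rose in WT from 616, 695 and 570 CPM to 1250, 2170 and 2830 in females and from 721, 460 and 813 to 1380, 1330 and 1850 in males. Every treated WT library lay above every WT control. In KO the female controls were at 318, 556 and 515 CPM and the treated females at 1740, 1280 and 829, again without overlap. The KO males did overlap, with controls at 793, 1390 and 966 CPM and treated libraries at 1410, 1110 and 956. The response was 1.46 ± 0.23 log2 in WT (adjusted p = 0.00235) and 0.81 ± 0.23 in KO (adjusted p = 0.297), and the interaction -0.66 ± 0.32 (unadjusted p = 0.0465, adjusted p = 1.0). It was -0.26 ± 0.45 in females and -1.05 ± 0.45 in males.

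Col1a1 and some of the next genes were among those with the smallest p of the WT response. The interaction subtracts that response, so the choice itself favours a lower KO value, and their order is given as a description. Sparc, a collagen-binding matricellular protein, responded by 1.47 ± 0.22 in WT and 0.86 ± 0.21 in KO, with an interaction of -0.61 ± 0.30. Postn, which encodes periostin, responded by 1.44 ± 0.23 in WT and by 1.00 ± 0.22 in KO (adjusted p = 0.165). Its treated libraries lay above all controls in both genotypes, in KO from 827 to 1500 CPM against 439 to 772 CPM. Acan, the cartilage proteoglycan aggrecan, responded by 2.48 ± 0.42 in WT and 1.14 ± 0.41 in KO, with an interaction of -1.34 ± 0.57 (unadjusted p = 0.0258). Col3a1 was at -0.67 ± 0.32 and Col15a1 at -0.55 ± 0.33. Without WT angiotensin II female replicate 3, Acan was at -0.85 and Col15a1 at -0.32. Lox, the enzyme that crosslinks collagen and elastin, rose in WT by 1.25 ± 0.26 (adjusted p = 0.0303) and was at 0.43 ± 0.26 in KO, with an interaction of -0.81 ± 0.37.

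The list median was -0.73 in males, with 7 of 33 members lower at an unadjusted p under 0.05 (background 1.72%), and -0.20 in females, with 0 of 33 (background 2.41%). No member had an unadjusted p under 0.05 for the sex difference. In fits that left out 1 library each, the list median ran from -0.54 to -0.27 and the count at that p from 0 to 10. The count stayed at 3 only when the library omitted was replicate 3 of the control males, WT or KO, or replicate 2 of the WT control females. It was 10 without WT angiotensin II female replicate 1, and 0 without WT angiotensin II female replicate 3, WT angiotensin II male replicate 3 or KO control male replicate 2. Over all genes and both directions, 837 had that p in the first of these fits. In the others, in that order, 726, 687 and 698 had it, against 657 in the main fit. The median of -0.27 came without WT angiotensin II female replicate 2. Limma-voom gave 11 of 33 with a median of -0.60, and the male libraries alone 12 of 32 with a median of -0.71. Over all genes and both directions, limma-voom had 847 at an unadjusted p under 0.05 and the male libraries alone 688. Basement membrane genes had a median of -0.06 over 13 tested members, from 0.21 in females and -0.48 in males. In males 10 of 13 were lower, 3 of them at an unadjusted p under 0.05 (background 1.72%), and 2 of 13 had that p for the sex difference (background 6.55%). Over all well-expressed genes the median was 0.14 in females, with 60.1% positive, and -0.10 in males, with 41.7% positive. Medians of the lists by sex stand on that tilt, which depended on the scaling, as described below.

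**Figure D2:**
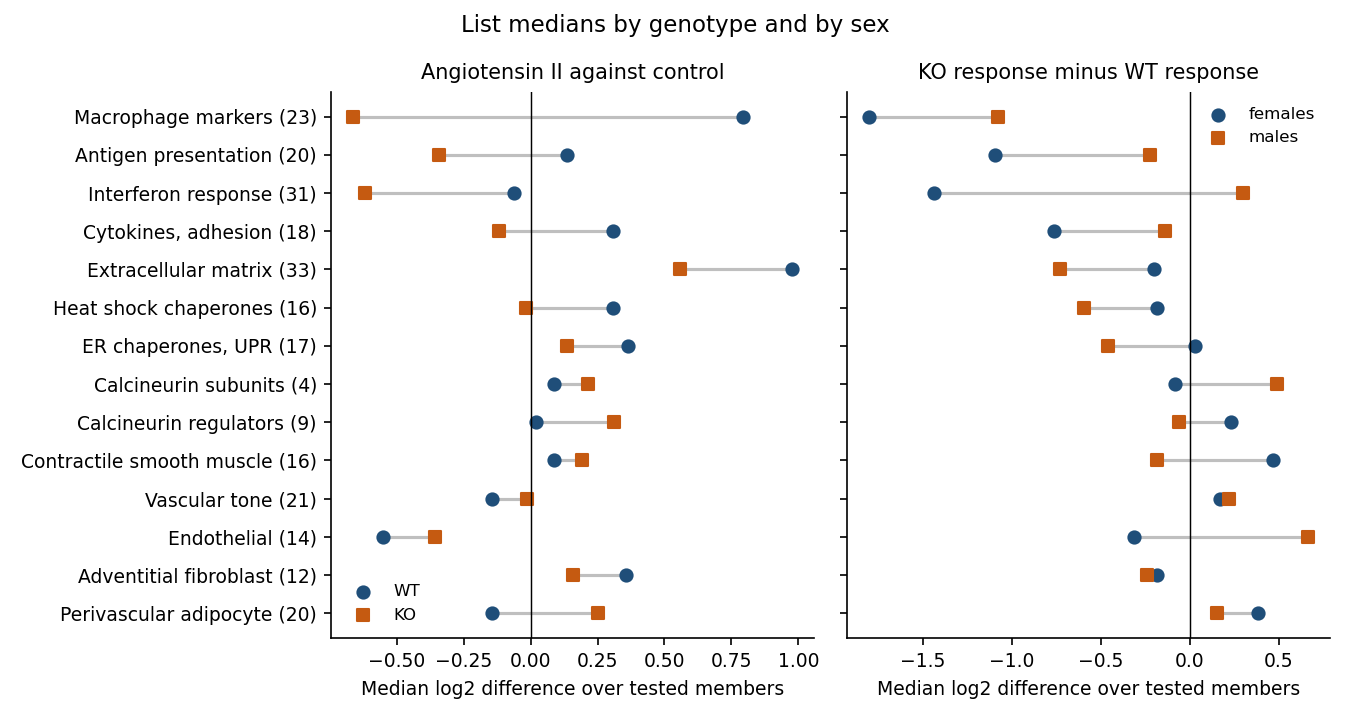
Median log2 difference over the tested members (number in brackets) of 14 gene lists: left, angiotensin II against control in WT (circles) and KO (squares); right, the interaction in females (circles) and males (squares). UPR is the unfolded protein response. Macrophage markers lie at 0.79 in WT and -0.66 in KO, and the interferon response list lies at -1.44 in females and 0.30 in males.

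Macrophage markers had the largest median interaction, in size, of the 34 lists. Of 24 markers, 23 were tested, and 21 of these had a lower KO response. At an unadjusted p under 0.05 there were 10 lower (background 1.91%) and 0 higher. The median response was 0.79 log2 in WT, where 20 of 23 were positive, and -0.66 in KO, where 4 of 23 were positive. The median interaction was -1.55, with -1.80 in females and -1.08 in males. Tyrobp and Lyz1 had a group with 0 counts in all 3 libraries, so their fitted values depend on the prior count; over the other 21 members the median was -1.31 and 8 were lower at that p. Lyz1 also has a near-identical copy, Lyz2, and the split of reads between them is uncertain.

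The summed level of the 24 markers showed the WT arms apart and the KO arms mixed. It ran from 155 to 177 CPM in the 6 WT controls and from 196 to 359 CPM in the 6 treated WT libraries, with no overlap. In KO it ran from 134 to 933 CPM in controls, with a median of 295, and from 170 to 499 CPM with angiotensin II, with a median of 227. The KO controls were far more spread than the WT libraries, at 217 to 426 CPM in females and 134 to 933 CPM in males. The part of macrophage content in the other results was not tested. None of the 24 markers was at 0 in all libraries. The summed level of 16 B and T lymphocyte markers was also spread in KO, at 20.7 to 257 CPM in controls and 19.4 to 394 CPM with treatment, against 18.0 to 168 and 19.5 to 40.7 CPM in WT.

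Cd68, a lysosomal glycoprotein of macrophages (chr11:69664213-69666153, mm10), was the well-expressed member with the smallest p. WT controls were at 4.76, 7.39 and 2.13 CPM in females and 2.66, 0.0 and 2.79 in males, and treated WT libraries at 16.3, 13.7 and 11.6 and at 8.9, 14 and 15.2. The WT arms did not overlap. In KO the controls were at 8.92, 8.28 and 9.42 CPM in females and 9.52, 28.3 and 3.89 in males, and the treated libraries at 10.3, 21 and 5.25 and at 9.54, 6.78 and 11.1, with complete overlap. The response was 2.16 ± 0.51 in WT (adjusted p = 0.0679) and -0.08 ± 0.48 in KO, and the interaction -2.24 ± 0.70 (unadjusted p = 0.003, adjusted p = 1.0). The interaction was -1.07 ± 0.97 in females and -3.41 ± 1.00 in males, and that sex difference had an unadjusted p of 0.1. The male WT controls held only 9, 0 and 12 counts. Csf1r, the receptor for colony stimulating factor 1, was at -1.24 ± 0.48, and Mpeg1, which encodes perforin-2, at -2.08 ± 0.81. KO control male replicate 2 held 72.6 CPM of Mpeg1 against 2.93 and 3.65 CPM in its group, and without it Mpeg1 was at -0.55 and Csf1r at -0.65. Lgals3 (0.25 ± 0.93) and Cd14 (0.13 ± 1.35) were the 2 positive members, both with wide errors. Fcgr3, an Fc receptor, was at -0.15 ± 0.58, from -2.29 ± 0.83 in females and 1.99 ± 0.82 in males. No macrophage marker had a 95% interval within 1 log2 unit of 0.

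Single KO control libraries moved the macrophage result. The KO control male replicate 2 held the highest Cd68, at 28.3 CPM. Without it, 2 of 23 markers were lower at an unadjusted p under 0.05 and the median was -0.55. There were 5 of 24 without KO control female replicate 3 (median -1.20) and 6 of 24 without WT control male replicate 1 (median -1.39). Without KO control female replicates 1 and 3 there were 5 of 24, with a median of -0.85. A fit of the male libraries alone gave 3 of 21 (median -0.86) and of the female libraries alone 8 of 21 (median -1.92), and limma-voom with sample weights gave 3 of 23 (median -1.18). Over all genes and both directions, 698 had an unadjusted p under 0.05 without KO control male replicate 2. Across the fits named here that count ran from 575 (female libraries alone) to 1098 (without KO control female replicates 1 and 3). In the main fit it was 657. The macrophage median was negative in all 36 alternative fits.

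**Figure D3:**
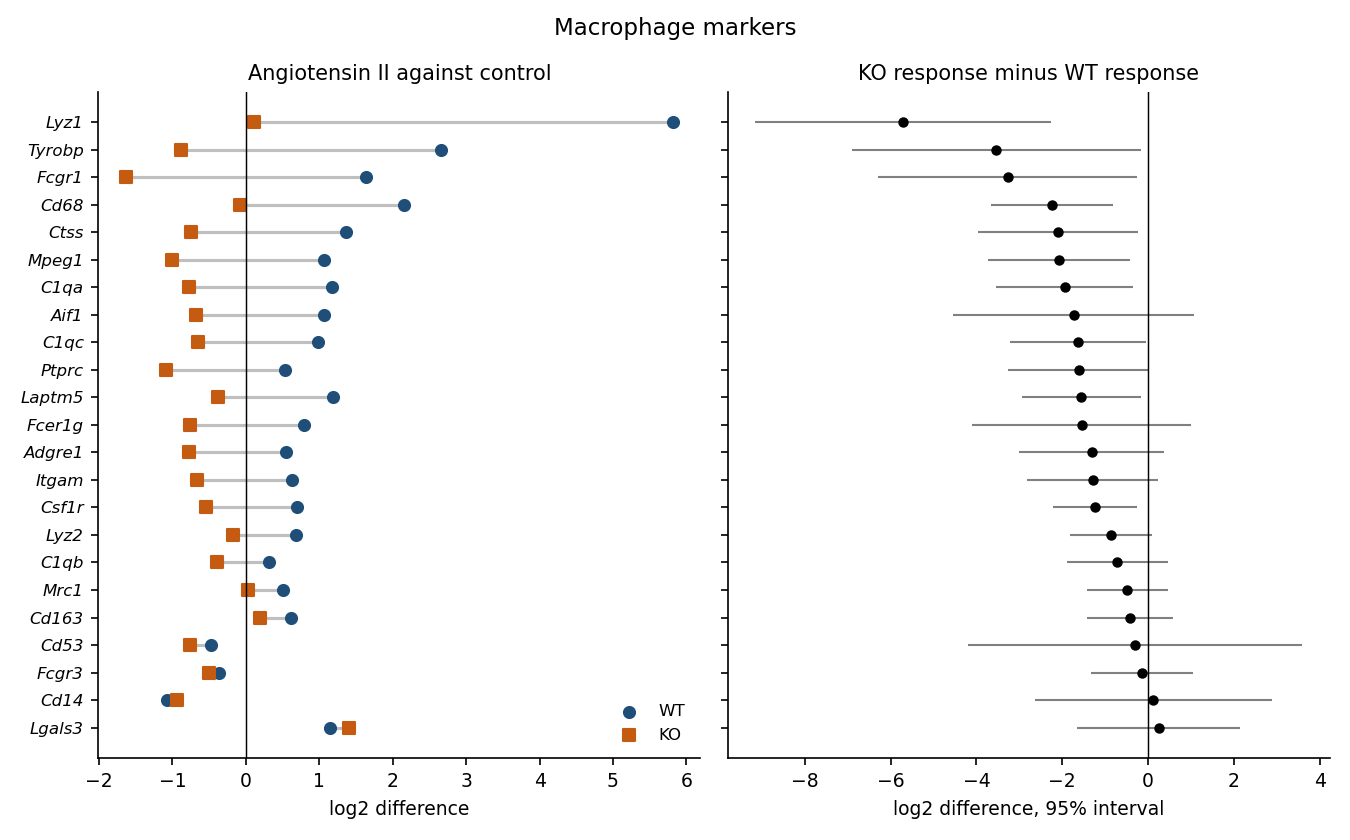
The 23 tested macrophage markers: left, log2 response to angiotensin II in WT (circles) and KO (squares); right, the interaction with its 95% interval. The WT value lies to the right of the KO value for 21 of 23 markers, and most intervals reach across 0.

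Antigen presentation and interferon response genes had lower KO responses in females. Antigen presentation genes were lower in 16 of 20 tested members, with 3 at an unadjusted p under 0.05 (background 1.91%) and a median of -0.52. The median was -1.09 in females, with 6 of 20 lower at that p (background 2.41%), and -0.22 in males, with 0 of 20 lower (background 1.72%) and 1 higher. Cd74, the invariant chain of MHC class II, ran from 17.4 through 47.0 to 74.5 CPM in WT controls and from 51.2 through 79.8 to 106 CPM in treated WT. In KO it ran from 27.5 through 214 to 806 CPM in controls and from 43.2 through 78.9 to 361 CPM with treatment. The fitted difference between KO and WT was 2.64 log2 in the controls and 0.64 with treatment. The interaction of Cd74 was -2.01 ± 0.67 (unadjusted p = 0.00557), of H2-Ab1, a class II beta chain, -1.88 ± 0.79, and of the class I gene H2-Q4 -1.37 ± 0.65. Without KO control male replicate 2, Cd74 was at -1.10 and H2-Ab1 at -0.81, and without WT angiotensin II female replicate 1, H2-Q4 was at -0.83. H2-Q4 belongs to a family of near-identical copies, so its counts are uncertain.

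Of 31 tested interferon response genes, 23 were lower in the KO response, 3 of them at an unadjusted p under 0.05 (background 1.91%), with a median of -0.53. The median was -1.44 in females, with 8 of 31 lower at that p (background 2.41%), and 0.30 in males, with 0 of 31 (background 1.72%). The sex difference had an unadjusted p under 0.05 in 4 of 31 members, against 6.55% of all genes. Igtp, an interferon-inducible GTPase, was at -4.53 ± 1.36 in females and -0.83 ± 1.32 in males. Ifit1, an antiviral protein that binds viral RNA, was at -2.94 ± 0.99 in females and -0.08 ± 1.00 in males. Without KO control female replicates 1 and 3 the list median over both sexes was 0.01, and without all 3 KO control females, when the males carry the contrast, it was 0.33. The same fits gave -0.22 and -0.19 for antigen presentation. Leaving out KO control male replicate 2 gave -0.13 for the interferon list and -0.21 for antigen presentation, with 1 member of each lower at an unadjusted p under 0.05. In that fit 698 of all genes had that p in either direction. The interferon median was also nearer to 0 when WT control male replicate 1 (-0.31), KO angiotensin II male replicate 3 (-0.33) or replicate 3 of the KO control females (-0.32) was omitted. For antigen presentation it was -0.35 without KO angiotensin II male replicate 3, -0.81 when WT control male replicate 2 was omitted and -0.79 when KO angiotensin II male replicate 2 was.

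Heat shock chaperones were lower in the KO response in 13 of 16 tested members, with a median of -0.40 and 2 at an unadjusted p under 0.05 (background 1.91%). These 2 were Hspa1a and Hspa1b, the stress-inducible HSP70 genes that are switched on by heat shock factor 1. Their RefSeq promoter windows are shown because they are the pair that moved most and because the windows show how alike the 2 genes are. Capitals mark GAANNTTC, 2 inverted units of the heat shock element (Hspa1a chr17:34972107-34972406 and Hspa1b chr17:34959189-34959488, GRCm38.p6, minus strand).
Hspa1a: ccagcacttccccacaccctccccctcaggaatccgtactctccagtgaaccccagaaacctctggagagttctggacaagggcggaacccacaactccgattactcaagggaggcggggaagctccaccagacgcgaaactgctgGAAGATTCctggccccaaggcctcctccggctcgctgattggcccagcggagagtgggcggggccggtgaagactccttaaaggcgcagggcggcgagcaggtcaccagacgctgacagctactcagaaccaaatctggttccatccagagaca
Hspa1b: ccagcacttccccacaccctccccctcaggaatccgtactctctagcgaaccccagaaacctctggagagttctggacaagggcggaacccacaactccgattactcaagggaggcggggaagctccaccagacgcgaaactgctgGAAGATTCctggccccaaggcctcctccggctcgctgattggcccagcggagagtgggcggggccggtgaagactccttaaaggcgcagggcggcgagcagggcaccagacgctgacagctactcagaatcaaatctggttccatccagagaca
The windows are identical at 296 of 300 positions (98.7%), and each holds 1 match. The motif reads the same on both strands and occurs in 7.86% of 32851 windows, or in 9.04% of 27025 genes, and in 10 of the 14 list members that have a window. The genes themselves are near-identical copies, so how reads were divided between them is uncertain and they do not count as 2 separate observations.

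Hspa1b (chr17:34956436-34959238, mm10) had the smallest p among the well-expressed protein-coding genes with a lower KO response in both sexes. WT controls were at 25.3, 19.1 and 47.1 CPM in females and 151, 38.7 and 19.1 in males, and treated WT libraries at 125, 85.4 and 159 and at 142, 88.2 and 29.0. The female WT arms did not overlap and the male WT arms did. In KO the controls were at 55.4, 34.5 and 31.0 CPM in females and 29.3, 19.6 and 52.5 in males, and the treated libraries at 19.8, 31.4 and 13.4 and at 22, 30.6 and 13.8. No treated KO library exceeded the median KO control of 32.8 CPM. The response was 1.17 ± 0.38 in WT and -0.76 ± 0.39 in KO, and the interaction -1.92 ± 0.54 (unadjusted p = 0.00122, adjusted p = 1.0), with -2.92 ± 0.78 in females and -0.92 ± 0.75 in males. Hspa1a was at -1.61 ± 0.56. Other members were closer to 0: Dnajb4 at -0.65 ± 0.33, Hsp90aa1 at -0.37 ± 0.27, and Hspd1, a mitochondrial chaperonin, at -0.03 ± 0.36. The list median ran from -0.47 to -0.26 when single libraries were left out, and was -0.26 without KO control female replicate 2 or WT angiotensin II female replicate 3. Without all 3 KO control females it was -0.56.

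Chaperones of the endoplasmic reticulum and the unfolded protein response were lower in 13 of 17 tested members, with a median of -0.21 and 2 at an unadjusted p under 0.05 (background 1.91%). Pdia6, a protein disulfide isomerase, was at -1.0 ± 0.34 and Ddit3, the stress-induced transcription factor CHOP, at -0.93 ± 0.39. Of 19 tested cell cycle genes, 13 were lower, 3 of them at that p (same background), with a median of -0.18. Aurka, Ccna2, Aurkb and Birc5 had a group with 0 counts in all 3 libraries, so their fitted values depend on the prior count. Over the other 15 members the median was also -0.18, and 2 were lower at that p. Mki67, the proliferation marker Ki-67 (chr7:135689784-135716361, mm10), ran from 0.296 through 6.31 to 9.13 CPM in WT controls and from 7.95 through 32.2 to 49.2 CPM with treatment, a rise (adjusted p = 0.0353) in which 1 treated library lay within the controls. In KO it ran from 5.1 through 15.4 to 27.4 CPM and from 5.02 through 14.2 to 52.8 CPM, and the arms overlapped. Its interaction was -2.10 ± 0.70 (unadjusted p = 0.00496).

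Genes of vascular tone were split, with 11 of 21 higher and 10 lower, and the 2 members at an unadjusted p under 0.05 were both higher (background 2.12%). These 2 belong to the nitric oxide and cyclic GMP relaxation pathway. Gucy1a1, the alpha subunit of soluble guanylate cyclase (chr3:82092427-82145789, mm10), was at 276, 260 and 282 CPM in female and 191, 315 and 337 CPM in male WT controls. Treated WT libraries were at 153, 161 and 163 CPM and at 176, 178 and 139 CPM, all below every WT control. In KO the controls were at 197, 192 and 200 CPM in females and 225, 207 and 274 in males, and the treated libraries at 113, 232 and 388 and at 197, 165 and 348, on both sides of the controls. The response was -0.78 ± 0.22 in WT (adjusted p = 0.228) and 0.16 ± 0.22 in KO, and the interaction 0.94 ± 0.31 (unadjusted p = 0.0049, adjusted p = 1.0), similar in females (1.09 ± 0.44) and males (0.78 ± 0.44). Its value stayed between 0.72 and 1.12 in all 36 alternative fits. An overlapping annotated gene makes its counts slightly uncertain. Prkg1, the cyclic GMP-dependent kinase, was at 0.72 ± 0.29, while the partner subunit Gucy1b1 was at 0.26 ± 0.26.

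Among 14 tested genes of angiotensin signalling, Rgs2, a brake on Gq signalling, had the only unadjusted p under 0.05 (background 2.12% higher). It was at 1.18 ± 0.52 (0.78 without WT control male replicate 1). Its medians were 37.7 and 24.7 CPM in WT controls and treated WT, and 18.7 and 19.9 CPM in KO. Of the 16 tested contractile smooth muscle genes, 14 had a 95% interval within 1 log2 unit of 0, the median was 0.14 and none had an unadjusted p under 0.05. Acta2, smooth muscle alpha-actin, was at 0.09 ± 0.32 and Myh11, smooth muscle myosin heavy chain, at 0.24 ± 0.29. The list median was 0.47 in females and -0.18 in males, against 0.14 and -0.10 over all well-expressed genes. In 2 members, Acta2 among them, the unadjusted p for the sex difference was under 0.05 (background 6.55%). Over both sexes the list median was 0.04 without KO control female replicates 1 and 3, and -0.14 without all 3 KO control females. Beside this stands the summed level of the list in KO control females, 11829 to 17467 CPM, against 16391 to 31961 CPM in the other 21 libraries.

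Other cell type lists moved little, moved in opposite directions in the sexes or rested on few libraries. Perivascular adipocyte genes were higher in 16 of 20, with a median of 0.26 and none at an unadjusted p under 0.05. Endothelial genes had a median of 0.12, from opposite directions in the sexes. In females 12 of 14 were lower (median -0.31), and in males 13 of 14 were higher (median 0.66). In males 2 of 14 were higher at that p (background 2.41%), and 2 of 14 had that p for the sex difference (background 6.55%). Adventitial fibroblast genes had a median of -0.33, with 1 of 12 lower at that p (background 1.91%). The cardiac gene Tnni3 was at -4.53 ± 1.47, but 1 KO control female held 61.1 CPM and the other 23 libraries at most 8.18 CPM. Snap25 and Dbh, genes of nerve terminals, had 0 counts in all 3 treated KO males and up to 53.5 CPM in KO control males, so their fitted values depend on the prior count. Egr3, an immediate early transcription factor, was likewise at 0 in the 3 KO control females, against 1.82 to 5.87 CPM in WT control females; its fitted interaction of 4.13 ± 1.17 is no bound, and in males it was 0.76 ± 1.19.

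Across all genes, lists included, the 20 well-expressed protein-coding genes with the smallest p and the same sign in both sexes spanned 0.85 to 2.06 among 10 higher and -2.24 to -0.74 among 10 lower genes. All 20 had an adjusted p of 1.0. Cd68, Hspa1b, Mki67, Gucy1a1 and Cyb5r3 are among them and belong to the lists. Asna1, an ATPase that delivers tail-anchored proteins to the endoplasmic reticulum (chr8:85017931-85025281, mm10), had the smallest p. WT controls were at 18.3, 30.0 and 17.6 CPM in females and 26.3, 26.4 and 21.7 in males, and treated WT libraries at 19.0, 16.8 and 23.4 and at 20.0, 17.3 and 18.1, with overlap. KO controls were at 3.18, 8.64 and 9.42 CPM in females and 18.8, 19.6 and 14.3 in males, and treated KO libraries at 25.3, 19.6 and 20.4 and at 20.2, 27.4 and 25.1. Within each sex the KO arms did not overlap, and the KO control females were the lowest of all 8 groups. The interaction was 1.32 ± 0.35 (unadjusted p = 0.000747), with 0.89 ± 0.49 in males. Those females do not enter the male value itself, but they enter the shared estimate of spread behind its error.

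Cyb5r3, a cytochrome b5 reductase that keeps the heme iron of soluble guanylate cyclase reduced (chr15:83153494-83172592, mm10), rose in WT by 1.63 ± 0.30 log2 (adjusted p = 0.0112). WT controls were at 148, 215 and 411 CPM in females and 391, 149 and 306 in males, and treated WT libraries at 465, 765 and 938 and at 784, 1090 and 1000, without overlap. In KO the controls were at 356, 205 and 402 CPM and at 629, 597 and 242, and the treated libraries at 329, 924 and 266 and at 411, 563 and 387. The KO arms overlapped, the response there was 0.28 ± 0.30, and the interaction -1.35 ± 0.42 (unadjusted p = 0.00309, adjusted p = 1.0). Sdc4, the cell surface proteoglycan syndecan-4, rose in WT by 0.85 ± 0.17 (adjusted p = 0.0232), with an interaction of -1.44 ± 0.35 in males and -0.03 ± 0.35 in females. Tubb4a, a beta-tubulin, rose in WT by 1.47 ± 0.33 (adjusted p = 0.0454), with an interaction of -1.55 ± 0.46. Among the higher genes, Rps6ka5, the kinase MSK1, was at 1.66 ± 0.52, with treated WT libraries at 7.76 to 12.0 CPM below all WT controls at 12.1 to 36.5 CPM. Meis1, a homeobox transcription factor, was at 0.85 ± 0.27.

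**Figure D4:**
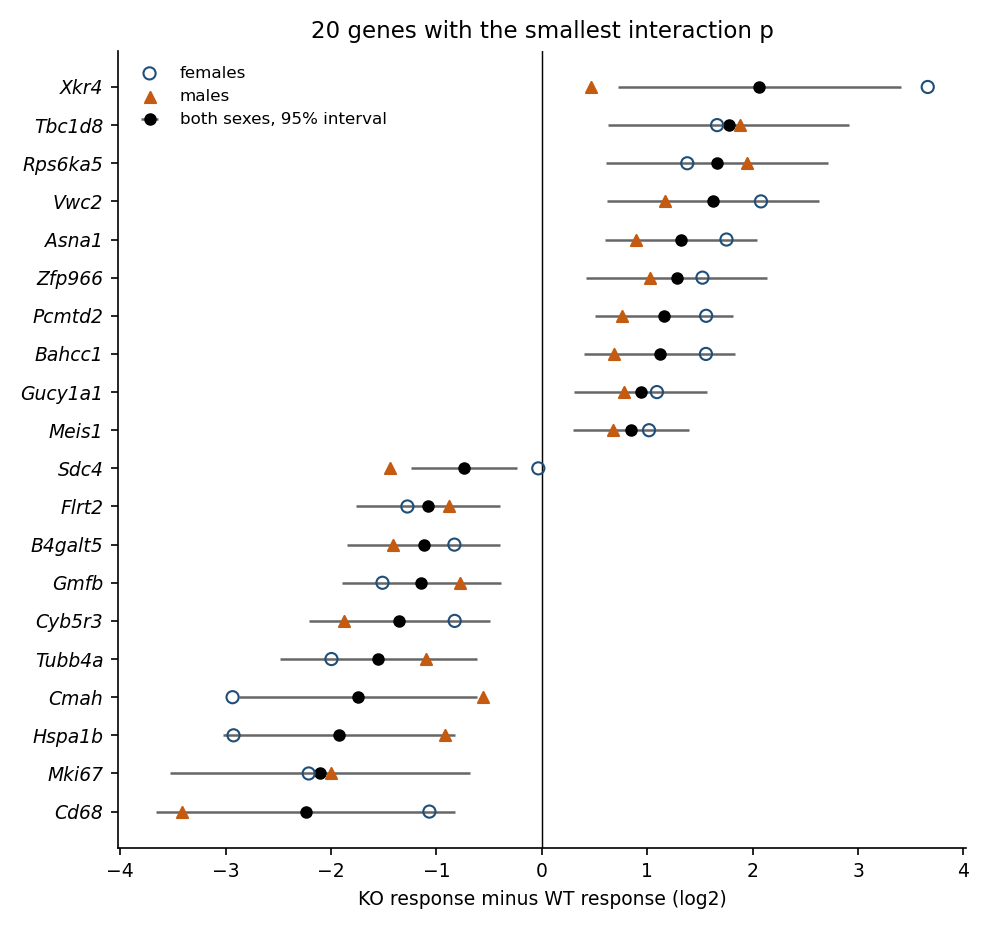
The 20 well-expressed protein-coding genes with the smallest interaction p and the same sign in both sexes: filled circles are the interaction over both sexes with its 95% interval, open circles females and triangles males, on the log2 scale. The 10 higher genes lie between 0.85 and 2.06 and the 10 lower genes between -2.24 and -0.74, and all 20 were chosen for their p, so intervals that miss 0 are no result.

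Among well-expressed genes, 2 crossed, with an unadjusted p under 0.05 in both genotypes and opposite signs. Vwc2, a secreted regulator of bone morphogenetic protein signalling, was at -0.77 ± 0.34 in WT and 0.85 ± 0.35 in KO. Gmfb, which encodes glia maturation factor beta, was at 0.54 ± 0.26 in WT, where the treated libraries (23.3 to 34.8 CPM) lay above all controls (15.5 to 22.2 CPM), and at -0.61 ± 0.26 in KO. The KO arms of Gmfb overlapped: KO control female replicate 1 held 84.1 CPM, and the other KO controls 17.1 to 27.7 CPM against 14.6 to 28.9 CPM with treatment. Without that library its interaction was -0.71, in place of -1.14. None of these 4 responses passed the adjusted threshold.

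The sexes share no library. Across the 8292 well-expressed genes the female and male interactions correlated at r = -0.10 (Pearson) and -0.10 (Spearman), a description over genes that share libraries within each sex. The sign was the same for 44.8% of them. At an unadjusted p under 0.05 in both sexes, 14 of all 16316 genes had the same and 54 the opposite sign. Tbc1d8, a GTPase regulator, was among those with the same sign, at 1.66 ± 0.80 in females and 1.88 ± 0.79 in males. Over the well-expressed genes 60.1% were positive in females and 41.7% in males. With DESeq2's size factors in edgeR these shares were 53.1% and 49.0%, so that tilt depended on the scaling (median 0.04 in place of 0.14 in females, -0.01 in place of -0.10 in males), while r was -0.10 and 46.4% had the same sign. Limma-voom gave r = -0.013, and with 1 library left out r ran from -0.143 (KO control male replicate 2) to -0.004 (WT control male replicate 2).

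The test of the sex difference itself called 0 genes (0.0%), with 1068 (6.55%) at an unadjusted p under 0.05 (3.17% higher and 3.38% lower in males) and a smallest adjusted p of 0.0992. DESeq2 called 7 and limma-voom 3. Among the well-expressed genes with the smallest p were Akirin1, a nuclear factor, at 2.32 ± 0.72 in females and -1.53 ± 0.65 in males, and Bmp4, a bone morphogenetic protein, at -1.84 ± 0.59 and 1.31 ± 0.58. Akirin1 was at 0.0, 2.88 and 4.43 CPM in KO control females and 15.8, 25.5 and 11.4 in treated KO females, and at 18.6, 14.4 and 20.9 and at 12.8, 13.7 and 15.1 in KO males. In WT it was at 11, 19.6 and 14.3 CPM and then 26.3, 18.8 and 16.5 in females, and at 7.98, 7.78 and 10.9 and then 17.5, 14.5 and 27.9 in males. The KO control females were the lowest group. Both genes had an adjusted p of 0.48 for the sex difference. Tuba1a, an alpha-tubulin, was at 0.75 ± 0.35 and -1.13 ± 0.35, and Scd2, a fatty acid desaturase, at 1.54 ± 0.51 and -1.15 ± 0.50. For these 2 genes too the KO control females had the lowest group mean, at 69.3 CPM for Tuba1a and 83.0 CPM for Scd2.

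**Figure D5:**
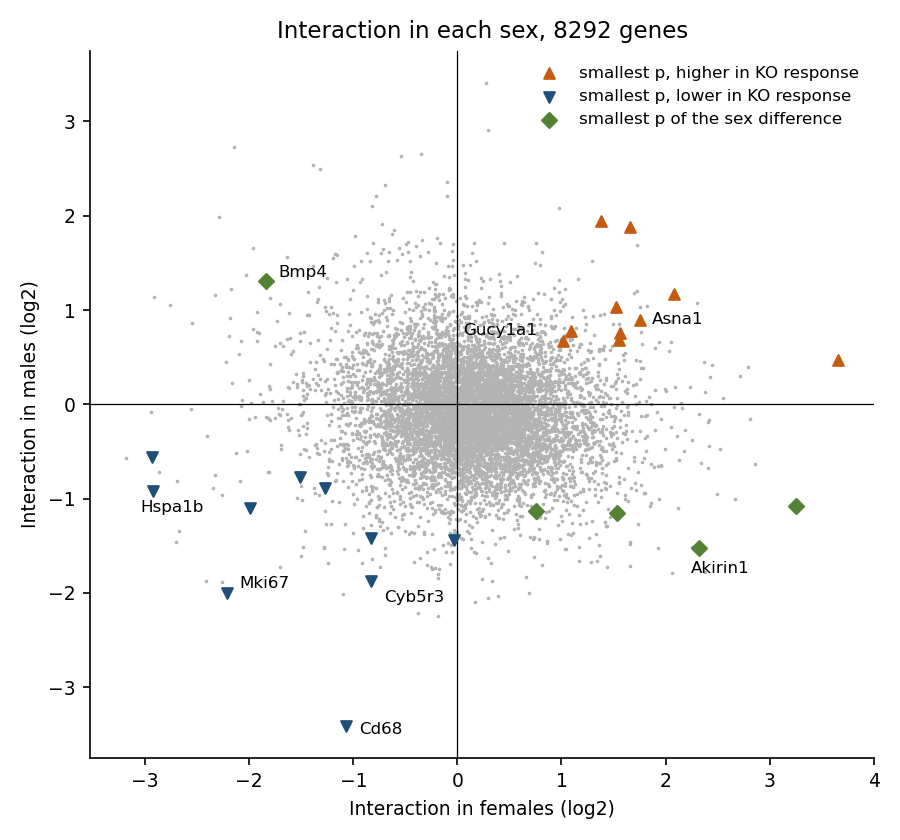
Interaction in females (x axis) and in males (y axis), log2, for the 8292 well-expressed genes (grey points), with the genes of the smallest interaction p (triangles) and of the smallest sex difference p (diamonds). The cloud shows no positive slope (r = -0.10), and the triangles share a sign in both sexes because they were chosen so.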

How the data were processed

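Ribosomal-depleted total RNA from the aorta was sequenced in 24 libraries, 8 groups of 3. The authors deposited 1 table of raw counts per gene with 41128 genes; the submitters' processing notes name mm10, featureCounts 1.4.6, TopHat2 2.0.14, cutadapt 1.8.1 and Bowtie2 2.2.5, without settings or strandedness. Overlapping and near-identical genes can therefore share reads. Counts were at 0 in every library for 6547 genes, on chromosomes 9, X, Y, MT and part of 8, which are not analysed here. Gene names and positions came from GENCODE M21 (40254 IDs matched).

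Genes were kept by edgeR's filterByExpr (minimum count 10, total 15), scaled by TMM and fitted in edgeR 4.0.16 (R 4.3.3) with 1 coefficient per group. The quasi-likelihood F-test was two-sided with Benjamini-Hochberg adjustment over 16316 genes. Standard errors are the log2 value over the root of F, or Wald errors where F was under 0.05. Levels are CPM of TMM-scaled library sizes. DESeq2 1.42.0 and limma 3.58.1 served as alternatives, with other scalings, filters and left-out libraries. The test was also run on independently simulated counts. These hold no outlier libraries or shifts in composition, so they do not show how the test behaves with such libraries.

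The gene lists and genes were chosen with earlier results of these data known. Named genes are the 10 with the smallest p in each direction (protein-coding, average log2 CPM of 3 or more, same sign in both sexes), up to 3 members of each of 34 lists at an unadjusted p under 0.05 (or the smallest) averaging 1 log2 CPM or more, calcineurin genes, crossing genes, and the 5 smallest p of the sex difference and of the WT response. Not all of them are described, and 1 item is not reported here. Other list members are named as examples, after their values were seen. Sequences are from RefSeq (GRCm38.p6).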

Additional observations from a re-analysis of the deposited data

How the results depend on the processing

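The count of genes past an adjusted p of 0.05 depended on the low-count filter and on single KO control females. With no count filter it was 12 for the interaction, 32 in females, 12 in males and 35 for the sex difference; the 12 for the interaction included Cd74, Hspa1b, Hspa1a, H2-Ab1, Cyb5r3 and Mki67, and the cause was not tested. The sex difference gave 7 with DESeq2 and 3 with limma-voom. Fits that each lacked 1 library called 0 to 2 genes for the interaction, 0 to 52 in females and 0 to 4 for the sex difference. The 2, the 52 and the 4 came without KO control female replicate 2, when 1386 genes had an unadjusted interaction p under 0.05. With the replicate number as a block, 0 genes were called in any of these 4 tests and 558 had an unadjusted interaction p under 0.05. The labels do not say whether equal numbers pair libraries. Deviations from group means had a median correlation of 0.02 over 36 equally and -0.01 over 72 differently numbered pairs. No pairing was detected, and a weak one could be missed.

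Over 36 alternatives, 2584 of 2606 values of 73 named genes kept their direction and side of the threshold, 8 passed it and 14 reversed. Of the genes, 67 never reversed. These counts are no independent support. Most of the genes were chosen by their p in the same data, some also for the same sign in both sexes. Most of the fits left out a single library, and no gene passed the threshold in the main fit. Reversed values were -0.12 for Emcn, -0.055 for Ppp3ca and -0.30 for Ppp3cb (females alone), -0.205 and -0.038 for Ighm (limma-voom; receptor share as a covariate), and 0.11 for Tnni3 (without KO control female replicates 1 and 3). Ppp3r1 reversed to -0.39 in males alone, -0.50 without those 2 libraries, -0.39 without all KO control females, and ran from -0.10 to 1.64 without single libraries. Of all 16316 genes tested, 12638 had an interval of the interaction that reached 2-fold; how this depends on depth was not tested.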
